A study of Mus musculus with 136 samples.

Results

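Ribosomal protein genes were taken from the deposited table by symbol: Rpl or Rps followed by a digit, leaving out the Rps6k kinases and pseudogene symbols that end in -ps and a number. This gave 66 of 15196 genes, of which 40 carry a large subunit symbol (Rpl) and 26 a small subunit symbol (Rps), and 8 matching names were left out as kinases or pseudogenes. A rule on names also takes Rps19bp1, which encodes a binding partner of the RPS19 protein and not a ribosomal protein, and the paralogs Rpl3l, known from muscle, and Rpl10l and Rpl39l, known from testis. The cytosolic ribosomal proteins build the large and the small subunit of the ribosome, and every growing cell transcribes their genes heavily. Many of their mRNAs start with an unbroken run of pyrimidines, the 5′ terminal oligopyrimidine tract, through which mTOR signalling controls their translation. Their introns often hold small nucleolar RNAs (snoRNAs), which guide the modification of ribosomal RNA, and the mouse genome holds many processed copies of their mRNAs.

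The study concerned NF-kB p50, the product of Nfkb1, and the nuclear IkB proteins in mouse macrophages exposed to lipid A, the TLR4-binding portion of endotoxin. Marrow of wild-type (C57/B16) or knockout mice was grown for 6 days with 8% M-CSF, the growth factor that drives macrophage differentiation. RNA labelled as nuclear and prepared from chromatin, where unfinished transcripts prevail, was sequenced in 113 libraries, and RNA labelled as polyA in 23. For the polyA libraries, too, the labels' protocol speaks of a chromatin fraction. Wild-type libraries were paired in separate series with libraries labelled Nfkb1-/- and Nfkbid-/- (3 replicates each) and Nfkbiz-/- and Bcl3-/- (2 replicates each), all at 0, 0.5, 1, 2 and 6 h of lipid A. Single chromatin libraries covered TNFa at 0, 0.5, 1, 2 and 6 h, and lipid A at 0, 15, 30 and 60 min in cells given DMSO or an ERK inhibitor (ERKi). The polyA libraries were an mRNA series of wild-type cells (unstimulated, and 0.5, 1, 2 and 6 h of lipid A or TNFa, 1 library each), control and IkBz-overexpressing cells (unstimulated, 2 h TNFa and 2 h lipid A, 1 each), and cells labelled J2, a term the labels do not explain, at 0 and 2 h of lipid A (wild type and Nfkb1-/- with 1 library per time, Nfkb1-/- Nfkb2-/- with 2). The labels do not say whether replicates came from separate mice or cultures, so the p-values measure the spread between these libraries.

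Values are RPKM, reads per kilobase of the counted region per 1e6 reads. Depth read from the step between low values was 7.86 to 45.3 times 1e6 reads (median 28.2) in the 103 chromatin libraries other than replicate 1 of the Nfkbid series. In those libraries the 66 genes together reached 50.5 to 302.9 RPKM, or 0.208% to 1.09% of the summed RPKM. Replicate 1 of the Nfkbid series stood apart in both genotypes: the members summed to 579 to 1005 RPKM, and the nuclear RNA Malat1 lay at 6.92 to 19.4 RPKM against 230 to 2863 in the other chromatin libraries. Its 10 libraries were left out of the chromatin fits, and counts with them are given. Nfkb1 RNA overlapped between wild type and the libraries labelled Nfkb1-/- at 0, 0.5, 1 and 2 h and was not lower at 6 h (7.75 to 13.8 RPKM against 4.67 to 7.53). Bcl3 RNA was higher in the libraries labelled Bcl3-/- (8.79 and 8.89 RPKM at 0 h against 2.20 and 2.66), so neither transcript checks its label, the deleted parts not being given in the sources used here. Values of the Nfkbiz and Nfkbid genes themselves were not used here. The macrophage markers summed to 25.8 to 66.7 RPKM in 9 unstimulated wild-type chromatin libraries, and no marker of neutrophils, dendritic cells, lymphocytes or stromal cells passed the filter of 1 RPKM.

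Sequence around the annotated start was searched for runs of C or T, the letters of the tract for which these genes are known. RefSeq promoter entries (build GRCm38.p6) matched 48 of the 66 genes by symbol. For Rps27rt the entry lies on chr9 and the counted span on chr3. A run of at least 8 C or T within 15 bases on either side of the start was present in 17 (35.4%). It was present in 11.6% of 10964 genes of the table with an entry and in 9 of 69 mitochondrial ribosomal protein genes. The windows below are shown for members on which the results turn, the first 4 with a run of 9 bases or more and the last 3 with a shorter run, and capitals mark the longest run of C or T.
Rps6: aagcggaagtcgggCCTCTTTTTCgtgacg
Rpl28: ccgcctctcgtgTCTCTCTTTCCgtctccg
Rpl13a: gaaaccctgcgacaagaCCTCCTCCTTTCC
Rps9: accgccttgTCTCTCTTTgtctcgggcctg
Rpl12: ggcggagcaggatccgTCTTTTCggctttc
Rpl23: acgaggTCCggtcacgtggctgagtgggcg
Rpl24: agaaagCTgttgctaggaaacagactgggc
Each window is written 5′ to 3′ and holds 15 bases before and 15 bases from the RefSeq start. On the minus strand lie the windows of Rps6 (chr4:86857353-86857382), Rpl13a (chr7:45128731-45128760) and Rpl23 (chr11:97782425-97782454), and on the plus strand those of Rpl28 (chr7:4792950-4792979), Rps9 (chr7:3704026-3704055) and Rpl12 (chr2:32961697-32961726). The run in Rps6, which encodes the small subunit protein that S6 kinases phosphorylate, begins 1 base before the annotated start. That of Rps9 begins 6 bases before it and that of Rpl13a at base 3 after it, so a run counted here need not begin the mRNA. Rpl24, which encodes a large subunit protein, has no run longer than 2 bases in its window (chr16:55966260-55966289, plus strand). The motif CCGGAAG, an ETS-type site sought on both strands of the 300 promoter bases, occurred in 35.4% of the 48 genes, in 37.7% of the mitochondrial ribosomal protein genes and in 11.3% of the genes of the table. GGGCGG, the Sp1-type box, occurred in 56.2% against 44.6%, TATAAA in 8.33% against 15.3%, and the kappa B motif in 3 of 48 (6.25%) against 7.28%. A match is a description of the letters and no evidence of a bound factor.

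Member means in chromatin RNA at 0 h ran from 0.00870 to 12.5 RPKM. Over the 9 unstimulated wild-type libraries the highest means were those of Rps3 (12.5 RPKM), Rpl3 (8.76), Rps9 (7.03), Rpl10 (5.23) and Rps12 (4.06). The lowest were those of the paralogs Rpl39l, Rpl10l (0.0366 RPKM), Rpl3l (0.0444), Rps4l (0.0633) and Rpl32l (0.0683). Rpl10l carried the value of 1 read in every library, which in these files stands for 0 or 1 read. Of the 66 genes, 58 passed the filter of 1 RPKM for the wild-type time course, and the other 8 were those 5 paralogs, Rpl36a, Rpl36al and Rps19bp1.

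Over 6 h of lipid A the chromatin RNA of most ribosomal protein genes fell in wild-type macrophages. The median member level per library was 1.22 to 2.59 RPKM at 0 h (median 2.14, n = 9), 0.901 to 3.32 at 0.5 h (median 1.72), 1.23 to 3.87 at 1 h (median 2.24), 1.22 to 2.37 at 2 h (median 1.73) and 0.755 to 1.28 at 6 h (median 1.04). The 6 h libraries were the lowest and overlapped only the low end of the 0 h range. In limma on log2(RPKM + 0.5) with the series as a term, 50 of 58 members were lower at 6 h (adjusted p under 0.05) and 2 were higher, with a median log2 difference of -0.67. Of all 4057 genes tested, 52.2% were lower and 21.3% higher, with a median of -0.31. After each library was centred on the median of its tested genes, the members called at 6 h were 30 lower and 3 higher, with a median of -0.35, where 32.5% of all genes were lower and 34.4% higher. Bulk RNA does not tell fewer cells from less RNA per cell.

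**Figure D1:**
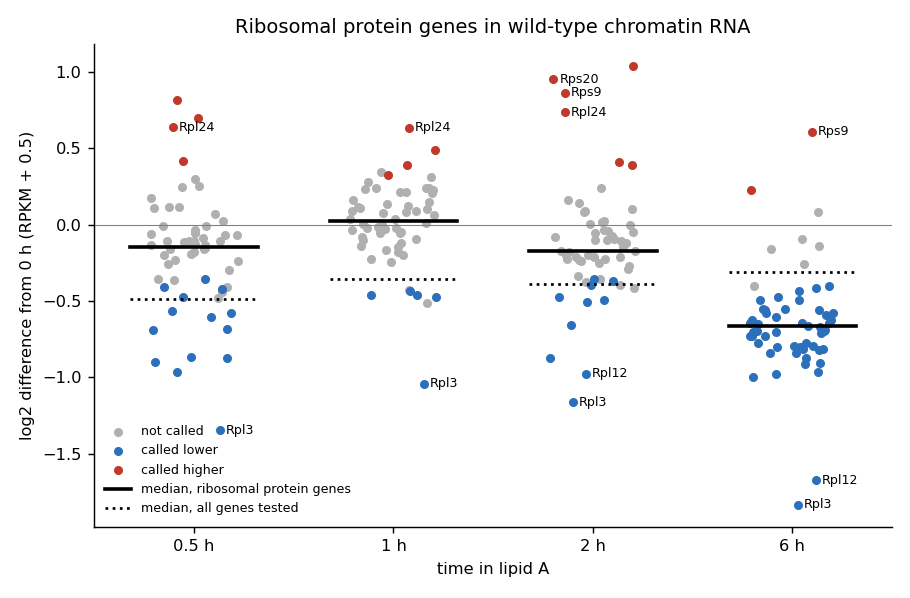
Log2 difference from 0 h (RPKM + 0.5) of the 58 tested ribosomal protein genes in wild-type chromatin RNA at 4 times of lipid A (9 libraries per time). Each point is a gene, coloured by its call at adjusted p under 0.05, and the solid and dotted lines are the medians of the members and of all 4057 genes tested; 50 points are called lower at 6 h, and Rpl3 and Rpl12 lie below the rest.

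At the earlier times smaller shares of the members than of all genes were called. At 0.5 h, 4 were higher and 14 lower, where 15.0% of all genes were higher and 60.2% lower, and the members' median was -0.14 against -0.49. At 1 h the counts were 4 higher and 5 lower (18.9% and 53.5% of all genes), with medians of 0.02 and -0.35. At 2 h they were 6 higher and 10 lower (21.9% and 55.5%), with medians of -0.17 and -0.39. The direction of the group at these times depends on the scaling: centred on the median, 27 members were higher and 4 lower at 0.5 h, 36 and 1 at 1 h, and 21 and 2 at 2 h, with member medians of 0.35, 0.43 and 0.23. Of all genes 32.1%, 36.8% and 36.3% were then higher and 33.2%, 34.3% and 35% lower at these times, so the share of members higher at 2 h is that of all genes. With the replicate number as a block, which pairs libraries of the same number, the counts as deposited were 7 higher and 22 lower at 0.5 h, 9 and 10 at 1 h, 6 and 22 at 2 h and 2 and 52 at 6 h, where 16.9%, 22%, 24.3% and 23.5% of all genes were higher and 64.7%, 58.2%, 59.8% and 57.5% lower. Block and centring together gave 38 and 6, 48 and 1, 32 and 4, and 3 and 45, where 36.9%, 40.8%, 40.0% and 38.9% of all genes were higher and 37.7%, 37.7%, 38.6% and 36.8% lower.

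The series were alike in direction at 6 h and unlike in the number called. Tested within its own libraries, the Nfkbiz series gave 45 of 58 members lower (median -0.67), the Nfkb1 series 15 of 57 (-0.79), the Bcl3 series 13 of 54 (-0.40) and the Nfkbid series without replicate 1 gave 2 of 59 (-0.77). Of all genes tested 40.3%, 26.2%, 38.3% and 15.4% were lower in these series, so the members' share was above that of all genes in the Nfkbiz series, near it in the Nfkb1 series and below it in the Bcl3 and Nfkbid series. Leaving out any single replicate left 46 to 51 members lower at 6 h.

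Both subunits took part. Of the large subunit members tested at 6 h, 30 of 34 were lower and 1 higher, and of the small subunit members 20 of 24 were lower and 1 higher, each with a median of -0.67. Among the large subunit genes Rpl3, whose protein sits near the peptidyl transferase centre, fell most. It was measured at 5.71 to 12.8 RPKM at 0 h (median 9.33), 1.27 to 7.60 at 0.5 h (median 3.58), up to 12.2 at 1 h (median 4.92), 1.95 to 6.18 at 2 h (median 3.42) and 1.21 to 2.87 at 6 h (median 2.10). All 9 libraries at 6 h lay below all 9 at 0 h. The log2 difference was -1.35 (SE 0.28, adjusted p = 3.94e-05) at 0.5 h and -1.84 (SE 0.28, adjusted p = 2.28e-07) at 6 h, and Rpl3 was called lower at 1 and 2 h as well. Its span in the files is chr15:79908210-79913836 (mm9).

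Rpl12, a protein of the stalk base where translation factors dock, followed at 6 h. Its values ran from 1.21 to 5.70 RPKM at 0 h (median 2.83) and from 0.268 to 1.21 at 6 h (median 0.524), so all 9 libraries at 6 h lay below those of 0 h, the closest of them narrowly. The difference was -1.68 (SE 0.32, adjusted p = 1.29e-05), and over all chromatin libraries the gene had as few as 4 reads. Rpl5, which with Rpl11 carries the 5S ribosomal RNA and binds MDM2, went from 1.48 to 3.78 RPKM at 0 h (median 2.79) to 0.881 to 1.56 at 6 h (median 1.24). The Rpl5 groups overlapped only at the lowest 0 h library, and the difference was -0.88 (SE 0.17, adjusted p = 1.53e-05). Rpl11 itself differed by -0.55 (SE 0.18, adjusted p = 0.00655). Rpl13, Rpl38, Rpl4 and Rpl27a, further large subunit genes, were lower by -0.91, -0.98, -0.84 and -0.84.

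Rpl13a, whose protein is known in human macrophages as a translational silencer of inflammatory mRNAs, was lower early. It went from 1.94 to 5.45 RPKM at 0 h (median 4.12) to 0.853 to 2.90 at 0.5 h (median 1.82), and it was at 1.03 to 2.65 at 6 h (median 2.14). Most, not all, of the 0 h libraries lay above the later ones. The difference was -0.96 (SE 0.21, adjusted p = 6.11e-05) at 0.5 h and -0.79 (SE 0.21, adjusted p = 0.000751) at 6 h. Rpl7l1, a relative of Rpl7, was lower at each of the 4 times, between -0.46 and -0.62.

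Among the small subunit genes Rps12 and Rps29 had some of the larger falls at 6 h, with Rps29 at -0.91 (SE 0.13, adjusted p = 8.39e-08). Rps6 lay at 0.833 to 2.50 RPKM at 0 h (median 2.01) and at 0.627 to 1.06 at 6 h (median 0.834), which overlapped in the lowest library of the 0 h group. Its difference was -0.71 (SE 0.16, adjusted p = 0.000139) at 6 h, and at 0.5, 1 and 2 h it was 0.12, 0.00 and 0.01 and not called. Rps14, a platform protein whose loss underlies the 5q- syndrome, was -0.60 (SE 0.15, adjusted p = 0.000566) at 6 h, with values of 1.66 to 3.06 RPKM at 0 h and 1.07 to 1.64 at 6 h that did not overlap. Rps4x, the X-linked S4 gene, was already lower at 0.5 h: 1.05 to 2.56 RPKM (median 1.49) became 0.285 to 1.44 (median 0.643), a difference of -0.90 (SE 0.13, adjusted p = 1.15e-07).

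A few members rose. Rpl24 was higher at every time: 1.19 to 2.52 RPKM at 0 h (median 1.69), 2.52 to 3.69 at 0.5 h (median 2.87), 2.45 to 3.82 at 1 h (median 2.75), 2.69 to 3.98 at 2 h (median 3.18) and 1.59 to 2.49 at 6 h (median 2.15). Its 0.5 h and 2 h libraries all lay above the highest 0 h library, and its 6 h range overlapped that of 0 h. The differences were 0.64, 0.63, 0.73 and 0.23 (SE 0.10 each), with adjusted p = 9.27e-09 at 2 h and 0.0348 at 6 h. The 6 h call of Rpl24 was lost without replicate 2 of the Nfkb1 wild type, replicate 1 of the Nfkbiz wild type or either replicate of the Bcl3 wild type, which leaves 1 member higher at 6 h (adjusted p of Rpl24 from 0.0539 to 0.154).

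Rps9, whose protein binds the 18S ribosomal RNA in the small subunit body, first fell and then rose. It lay at 4.44 to 10.2 RPKM at 0 h (median 7.21), 2.63 to 8.38 at 0.5 h (median 4.77), 8.61 to 20.3 at 2 h (median 13.1) and 6.53 to 14.5 at 6 h (median 11.7). The 2 h libraries were the highest, with a small overlap with 0 h. The differences were -0.47 (adjusted p = 0.00526) at 0.5 h, 0.86 (SE 0.15, adjusted p = 2.67e-06) at 2 h and 0.61 (SE 0.15, adjusted p = 0.000495) at 6 h. The 0.5 h value is about the median of all genes at that time, -0.49, so the direction of Rps9 at 0.5 h depends on the scaling.

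Rps20, a gene of the small subunit head, was higher at 2 h and at 1 h (0.39). It was at 0.661 to 2.22 RPKM at 0 h (median 1.60), 1.83 to 4.72 at 2 h (median 3.51) and 0.696 to 2.59 at 6 h (median 1.84). The 2 h libraries overlapped those of 0 h only at the lowest 2 h library. The 2 h difference was 0.95 (SE 0.13, adjusted p = 9.49e-09), and at 6 h it was 0.08 and not called. Rpl17 and Rpl27 were also higher at 2 h (0.41 and 0.39). Rpl27 lies 2815 bases from Ifi35 and Rpl17 lies 39213 bases from Lipg, whose own chromatin RNA changed by 2.20 and 3.72 at 2 h, and the part of neighbouring transcription was not tested.

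**Figure D2:**
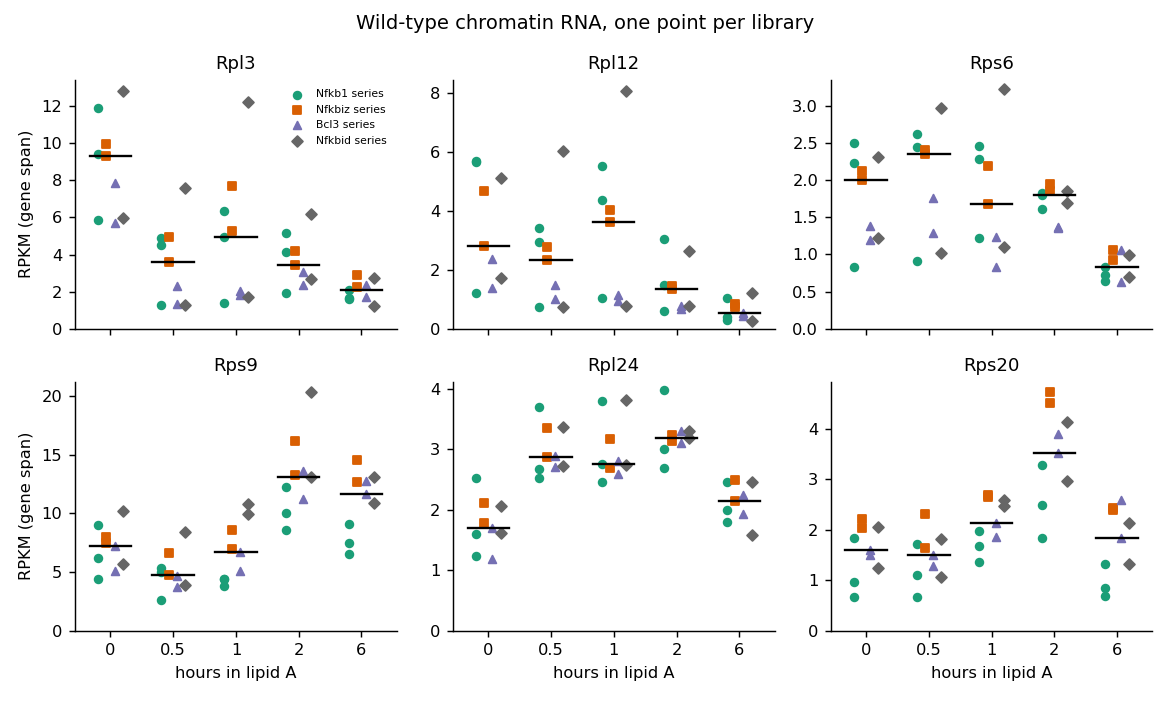
RPKM over the gene span of 6 ribosomal protein genes in wild-type chromatin RNA against hours in lipid A, with 1 point per library, a symbol per series and a line at the median of the 9 libraries. Rpl3, Rpl12 and Rps6 are lowest at 6 h, Rps9 and Rps20 are highest at 2 h, and Rpl24 lies above its 0 h median at each later time.

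The 0.5 h rise had other members. Rps27a, which encodes ubiquitin fused to a small subunit protein, went from 1.88 to 4.64 RPKM (median 3.21) to 2.66 to 8.79 (median 6.75) at 0.5 h and 1.12 to 2.41 (median 2.00) at 6 h. Rpl23, which like Rpl5 and Rpl11 encodes a protein that can bind MDM2, went from 1.92 to 4.72 (median 3.12) to 4.19 to 9.27 (median 5.51) at 0.5 h and 1.08 to 2.58 (median 1.66) at 6 h. In both, most of the 0.5 h libraries lay above the 0 h range, and the 6 h libraries lay in its lower part or below it. The differences at 0.5 h were 0.70 (SE 0.22, adjusted p = 0.00371) for Rps27a and 0.81 (SE 0.20, adjusted p = 0.000321) for Rpl23, and at 6 h both were lower (-0.58 and -0.64). Rps13 was the other member higher at 0.5 h (0.42), and it was lower at 6 h (-0.48).

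Counts at 6 h can be set beside the start sequences shown above. Of the 41 tested members with a promoter entry, 15 of the 16 with a run of at least 8 C or T were lower at 6 h and 1, Rps9, was higher (median -0.72). Of the 25 without such a run, 21 were lower and 1 was higher (median -0.65). All 16 members with CCGGAAG were lower (median -0.68), as were 20 of 25 without it (median -0.64). Every class was mostly lower, as were 50 of all 58 tested members and 52.2% of 4057 genes. Other genes with the same run or motif were not counted. The difference between these classes was not tested.

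Genes that work with the ribosomal proteins were mostly lower at 6 h, as were 52.2% of all genes tested (21.3% higher, median -0.31). Of 18 tested ribosome biogenesis factors 16 were lower and none higher (median -0.84), among them Nop56 (-1.49), Ppan (-1.29) and nucleolin, Ncl (-1.26). Of 11 translation factors and other genes with terminal oligopyrimidine mRNAs, 10 were lower and none higher (median -0.48), with Nap1l1 at -1.53 and Tpt1 at -0.85. Ribosomal proteins outside the name rule gave 3 of 4 lower, Rplp0 (-0.67), Rplp1 (-0.79) and Rack1 (-0.85). Of 24 mitochondrial ribosomal protein genes 16 were lower and 3 higher (median -0.46). In a list of mTOR genes and regulators of terminal oligopyrimidine mRNAs, the RNA-binding protein Larp1 was higher (1.25). Larp1 is a single gene of that list and does not give the direction of the others. Counts over that list, and over the list of RNA polymerase I genes and Myc, are not given here. The 4 markers of proliferating cells, Mki67, Top2a, Cdk1 and Ccnb1, were all lower as well (-1.79, -2.34, -1.82 and -1.41), and their summed level went from 5.89 to 28.1 RPKM at 0 h (median 19.3) to 1.78 to 8.82 at 6 h (median 3.13). Their part in the change of the ribosomal protein genes was not tested.

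snoRNA genes inside the spans carried part of the deposited signal. Among the 66 genes 19 hold 28 annotated snoRNA genes, whose share of the host's span signal in unstimulated wild-type libraries was 1.56% to 75.01% (median 7.89%), and in 4 hosts it exceeded 20%, among them Rps3 (75.01%), Rps2 (38.0%) and Rpl13a (21.96%). Rps3, the mRNA entry channel protein that also binds p65 of NF-kB, holds Snord15a and Snord15b in its span chr7:106626406-106632219 (mm9). As deposited, Rps3 lay at 6.47 to 20.4 RPKM at 0 h (median 11.9) and 6.71 to 24.1 at 6 h (median 10.8), which overlapped, with differences of 0.25, 0.35, 0.24 and -0.10 over the 4 times and no call. With the signal of both snoRNAs taken off it lay at 1.76 to 4.36 RPKM at 0 h (median 3.16) and 1.10 to 2.35 at 6 h (median 1.69). The differences were then -0.35 (adjusted p = 0.0373), -0.23 (adjusted p = 0.170), -0.37 (adjusted p = 0.0275) and -0.72 (adjusted p = 6.07e-05). Without the snoRNA signal 51 of 57 members tested were lower at 6 h, where 2120 of 4056 genes were lower.

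**Figure D3:**
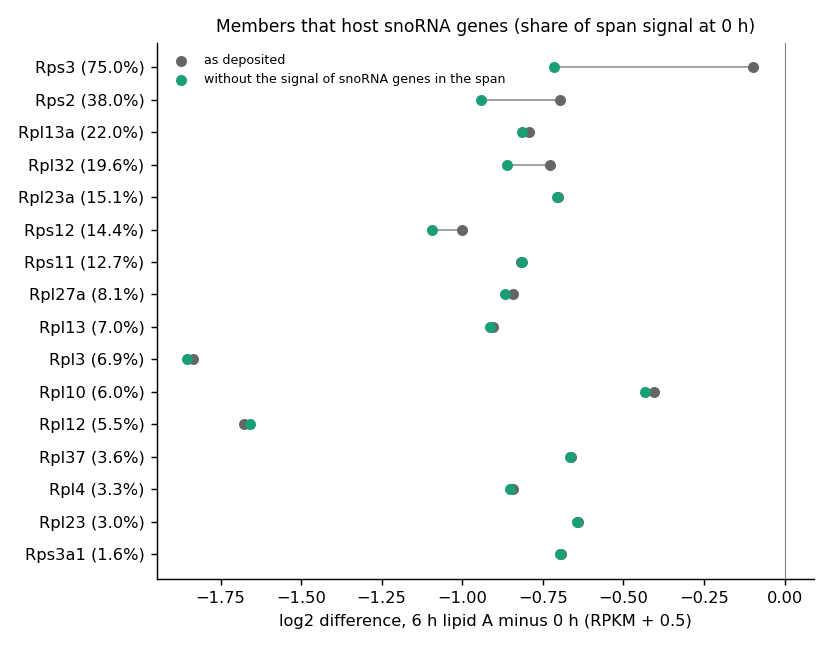
Log2 difference between 6 h and 0 h of lipid A (RPKM + 0.5, wild-type chromatin RNA) of 16 tested members that hold snoRNA genes, ordered by the share of their span signal in snoRNAs at 0 h (in parentheses). Grey points are values as deposited and green points are values after the snoRNA signal was taken off; Rps3 moves from -0.10 to -0.72, and the hosts with small shares hardly move.

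Other shared spans remain: Rpl26 overlaps Gm15772, Rpl32l Map7, Rpl35 Wdr38, Rpl5 Fam69a, Rps16 AF357399 and Rps25 Ccdc84. Of the snoRNA hosts, Rpl13a also overlaps Mir5121, Rpl32 Cand2 and Rps3a1 Rnu73b. The labels name a stranded kit, and whether strand was used in counting is not given in the sources used here, so values of these members are uncertain.

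By genotype, only the libraries labelled Nfkbiz-/-, which lack IkBz per the labels, had members past the threshold in the main fits. These fits had no replicate block. With limma 0, 0, 1, 3 and 19 of 58 members were lower than in wild type at 0, 0.5, 1, 2 and 6 h and none was higher, where 0.00%, 0.00%, 0.757%, 2.27% and 15.8% of 4885 genes were lower and 0.00%, 0.00%, 0.184%, 1.08% and 4.75% higher. The unadjusted p was under 0.05 for 4, 9, 24, 29 and 37 members, all lower. The median member difference was -0.35, -0.37, -0.46, -0.52 and -0.58, against -0.07, -0.09, -0.08, -0.09 and -0.24 over all genes, and 57, 58, 58, 58 and 57 of 58 members lay below 0. The wild-type libraries of this series are also part of the wild-type time course above.

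The number called depends on the libraries, the scaling and the pseudocount. The member median per library at 0 h was 2.14 and 2.27 RPKM in wild type and 1.24 and 2.06 in the libraries labelled Nfkbiz-/-, and at 6 h it was 1.19 and 1.08 against 0.529 and 0.662. At 6 h both libraries labelled Nfkbiz-/- lay below both wild-type libraries, and at 0 h replicate 1 lay apart. Without that replicate the 0 h median difference was -0.01 and the 6 h median -0.48, with 5 of 59 members lower at 6 h (4.54% of all genes). Without wild-type replicate 1 the 6 h count was 1 of 59 (2.20% of all genes lower), without wild-type replicate 2 it was 4 of 58 (14.2%), and without replicate 2 of the knockout it was 21 of 59 (5.97%). Centred on the median of all genes, 4 of 58 members were lower at 6 h (median -0.34), a share near the 5.10% of all genes. With the replicate number as a block 30 were lower (26.7% of all genes), and with block and centring 13 were lower and 1 higher (9.54% and 13.8%). A pseudocount of 0.1 gave 27 lower (18.8% of all genes) and a pseudocount of 1 gave 11 (13.3%). Without the block, limma called no difference between the effect at a stimulated time and that at 0 h for any member (unadjusted p under 0.05 for 0, 1, 1 and 4 members at 0.5, 1, 2 and 6 h, all lower, where 0.00%, 0.123%, 0.512% and 2.50% of genes were called lower and 0.00%, 0.00%, 0.123% and 1.45% higher). With the block 1 member was called lower in this comparison at 6 h, where 4.56% of genes were lower and 3.13% higher. It was Rps9, at -0.997 (adjusted p = 0.0431 with the block, 0.0422 with a block at each time and 0.0803 without it).

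Of the 19 members lower at 6 h, 12 of 34 were from the large and 7 of 24 from the small subunit. Rps9 differed most. Its values at 0 h were 7.98 and 7.44 RPKM in wild type and 4.71 and 7.14 in the libraries labelled Nfkbiz-/-, at 2 h 16.2 and 13.3 against 7.31 and 8.08, and at 6 h 14.5 and 12.7 against 5.06 and 4.78. The groups did not overlap at any of these times, and the high values of 2 and 6 h seen in wild type were not reached in the knockout. The differences were -0.89 (SE 0.20, adjusted p = 0.0277) at 2 h and -1.38 (SE 0.20, adjusted p = 0.000547) at 6 h.

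Rpl24, the other member higher at 6 h in wild type, was at 3.23 and 3.13 RPKM at 2 h against 1.69 and 2.03, and at 2.49 and 2.15 at 6 h against 0.932 and 1.06. The wild-type and knockout libraries were separate at both times, with differences of -0.65 (SE 0.15, adjusted p = 0.0359) and -0.91 (SE 0.15, adjusted p = 0.00146). Rps27a at 6 h was at 2.41 and 2.21 RPKM in wild type and 0.971 and 1.05 in the knockout (-0.90, SE 0.21, adjusted p = 0.0112). Rpl10, Rps18 and Rpl3 followed with -1.15, -1.02 and -0.94. Rpl3 was the member called at 1 h (-1.36, SE 0.29, adjusted p = 0.0436), and Rpl28, a large subunit gene, was called at 2 h (-0.77). Rps20, which rose at 2 h in wild type, was not called: at 2 h it had 4.72 and 4.50 RPKM in wild type and 3.09 and 3.66 in the knockout.

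**Figure D4:**
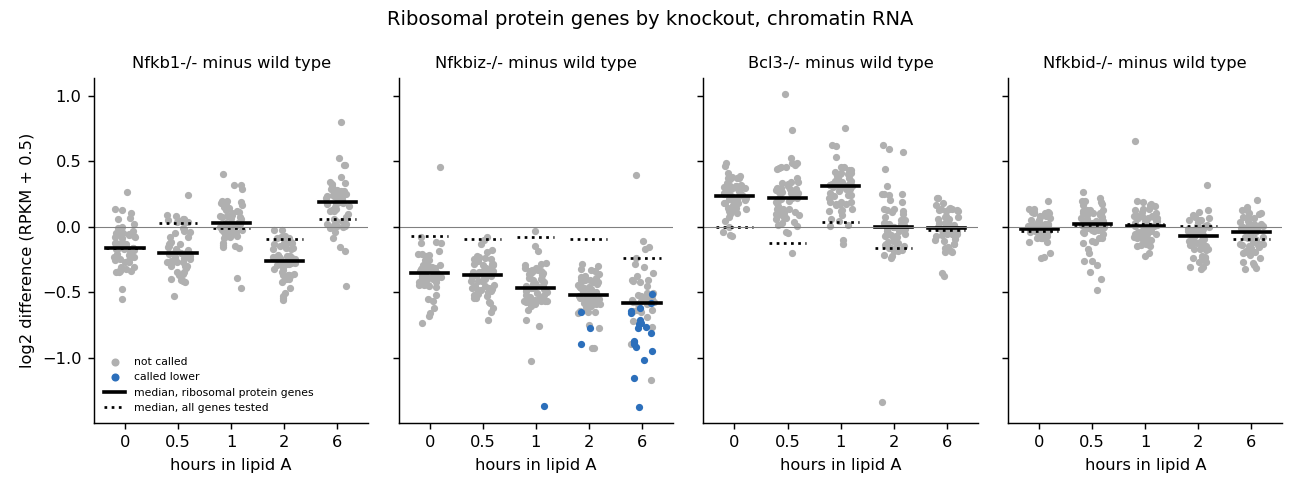
Log2 difference (RPKM + 0.5) between the libraries labelled as knockouts and wild type of the tested ribosomal protein genes (58 or 59) at 5 times of lipid A in chromatin RNA, 1 panel per knockout series. Each point is a gene and blue points are called lower; solid and dotted lines are the medians of members and of all genes tested, and in the Nfkbiz panel 57 or 58 of the 58 members lie below 0 at each time, with 19 called at 6 h.

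In the same comparison at 6 h, where 15.8% of all genes were lower, 3 of 21 ribosome biogenesis factors were lower (Nop56, Pes1 and Gnl2, median of the list -0.45), a share near that of all genes, 7 of 28 mitochondrial ribosomal protein genes were lower, and none of 11 translation factor and related genes was called (median -0.39). The 4 proliferation markers were lower (-1.22 for Mki67, -1.13 for Top2a, -1.04 for Cdk1 and -0.83 for Ccnb1), with a summed level at 6 h of 3.53 and 8.82 RPKM in wild type and 1.24 and 1.95 in the knockout. At 0 h the sums were 20.2 and 28.1 against 16.2 and 16.8. The part of proliferation in the lower members was not tested.

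In the other 3 series no member was called in the main fits. In the Nfkb1 series limma gave 0 of 58 at each time (from 0 to 6 h 0.00%, 0.00%, 0.0884%, 0.00% and 0.133% of 4523 genes were higher and 0.00%, 0.0663%, 0.641%, 0.442% and 0.265% lower), with an unadjusted p under 0.05 for 1 member, higher at 6 h. The member medians were -0.16, -0.20, 0.03, -0.26 and 0.19 from 0 to 6 h. With the replicate number as a block 1 member was called higher at 6 h (1.19% of all genes higher), and with a block at each time 1 higher at 6 h (4.18%) and 1 lower at 2 h (3.67% lower). In the Bcl3 series 0 of 58 were called and 0.00% of 4740 genes were, and the unadjusted p was under 0.05 for 1 member, lower at 2 h. The medians were 0.24, 0.22, 0.31, 0.00 and -0.01, with 55, 55 and 56 of 58 members above 0 at 0, 0.5 and 1 h. Replicate 2 labelled Bcl3-/- carried this at 0 h: its member median was 2.55 RPKM, against 1.42 in replicate 1 and 1.28 and 1.78 in wild type. Without that replicate 1 member was higher and 6 were lower at some time, with 4 of 57 lower at 0.5 h and 2 at 2 h, where 42.1% and 30.9% of all genes were lower.

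In the Nfkbid series without replicate 1, 0 of 59 members were called and 0.00% of 4871 genes were, with no member at an unadjusted p under 0.05 and medians from -0.07 to 0.02. With limma and no block none of these 3 series gave a call for a difference between the effect at a stimulated time and that at 0 h in any member (unadjusted p under 0.05 for 0 members). In the Nfkb1 series 0.0221%, 0.0884%, 0.0663% and 0.0221% of genes were called lower in that comparison at 0.5, 1, 2 and 6 h and 0.00% higher, and in the other two series 0.00% in both directions. Whether the effect of the Nfkbiz knockout differs from those of the other knockouts was not tested.

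TNFa, which activates NF-kB through its own receptor, was followed in single libraries, so the values below have no replicate check. In chromatin RNA 10 of 59 members were at least 1.5-fold higher at 0.5 h and none lower, where 14.6% of 4391 genes were higher and 14.9% lower, and the member median was 0.38 against -0.09. The share of members higher is near that of all genes. Rps27a was at 2.82 RPKM at 0 h and 6.56 at 0.5 h (log2 difference 1.09), Rpl27 reached 3.27 (0.99), Rpl24 at 1.69 and 3.42 (0.84) and Rpl23a at 1.19 and 2.48 (0.82). At 1, 2 and 6 h 1, 2 and 1 members were higher and none lower (6.65%, 8.72% and 11.1% of genes were higher and 5.24%, 6.47% and 8.27% lower), with medians of 0.03, 0.07 and 0.06. Rps27a was the member above the threshold at 6 h, with 5.32 RPKM, and at 2 h it was past it with Rpl36.

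Over 60 min of lipid A in cells given DMSO, the members past 1.5-fold were 3 higher and 17 lower at 15 min, 3 and 8 at 30 min, and 5 and 2 at 60 min, against 10.3% and 22.1%, 14.4% and 48.5%, and 19.9% and 34.0% of 3409 genes. Rpl24 went from 1.23 RPKM to 2.19, 3.58 and 4.27. Rpl3 went from 6.16 to 3.14, 2.90 and 3.50, and Rpl14, a large subunit gene, from 1.29 to 0.293 at 15 min. Rps29 was at 2.28 RPKM before and 0.784 at 15 min. The order of Rpl24 above and Rpl3 below their start is that of the replicated time course.

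With the ERK inhibitor against DMSO, 0, 4, 4 and 2 members were lower and 0, 0, 0 and 1 higher at 0, 15, 30 and 60 min (2.58%, 5.75%, 5.81% and 9.33% of genes lower, 1.64%, 2.99%, 3.75% and 8.39% higher). At 15 min these were Rpl10 (53.4 RPKM with DMSO and 27.1 with the inhibitor), Rps3 (85.0 and 52.5), Rpl5 (3.40 and 1.84) and Rpl4 (6.97 and 4.21). Between 88.3% and 95.6% of the Rpl10 signal in this series and 95.5% to 98.7% of that of Rps3 lay in their snoRNA genes. Without it the differences at 15 min were -0.31 in place of -0.97 for Rpl10, -0.23 in place of -0.69 for Rps3 and -0.29 in place of -0.66 for Rpl4, all under 1.5-fold. At 60 min Rpl10 changed sign, from 0.62 to -0.22, and Rps3 from 0.40 to -0.60. At that time Rpl12 went from -0.21 to -0.99 and Rpl13a from -0.14 to -0.72 when the snoRNA signal was taken off, which put Rps3 and both of these past 1.5-fold lower.

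In the polyA libraries the deposited levels of the same genes differed by series. The members summed to 30149 to 33710 RPKM in the J2 libraries (10.8% to 12.3% of the summed RPKM), to 14763 to 19956 in the overexpression series (5.53% to 6.92%) and to 1555 to 2163 in the mRNA series (0.588% to 0.900%). In the unstimulated mRNA library the highest included Rpl8 (647 RPKM), Rps3 (118), Rps20 (116) and Rps9 (108), and the lowest were Rpl3l (0.0925), Rpl39l (0.119), Rpl24 (0.141), Rps27rt (0.278) and Rpl23a (0.515). Rpl24 was at 216 RPKM in the unstimulated control library of the overexpression series. Rpl10l was listed at the same 0.978 RPKM in all 9 mRNA libraries.

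Among members with at least 10 RPKM in the control library, the gap went with sequence they share with other genes. Of 64 members with a coding sequence in the GRCm38 transcripts, 60 had at least 10 RPKM in the control library. Only these are used below, so the filter rests on a library that also enters the ratio. It left out Rpl10l, Rpl3l and Rpl39l, with 12.5%, 0% and 0% of words shared and 0.978, 0.0925 and 0.119 RPKM in the mRNA library. Without the filter those paralogs, low in both libraries, would fall in the first class below. Rpl21, with 100% shared and 0.569 RPKM, was left out too. Where under 20% of the 50-base words of the coding sequence also occur in transcripts of other genes (4 members, among them Rps3, Rpl8 and Rps19bp1), the median was 383 RPKM in the mRNA library and 599 in the control library, and the median ratio of the libraries was 1.49. Where 20% to 80% are shared (9 members) the medians were 20.1 and 467 and the ratio 8.37. Where at least 80% are shared (47 members) they were 2.74 and 259 and the ratio 95.1. Spearman's rho between the shared share and the level over the 60 genes is given as a description. It was -0.55 for the mRNA library, -0.17 for the control library and -0.24 for the J2 wild type, each 1 library. For chromatin RNA, the mean of 9 unstimulated wild-type libraries, it was -0.04. For the unstimulated wild-type library of replicate 1 of the Nfkbid series it was -0.55. Rps20 departs from the order: 85.7% of its words are shared, and it was at 116 RPKM in the mRNA and 69.9 in the control library. How reads that match several places were counted is not given in the sources used here, and its part was not tested.

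**Figure D5:**
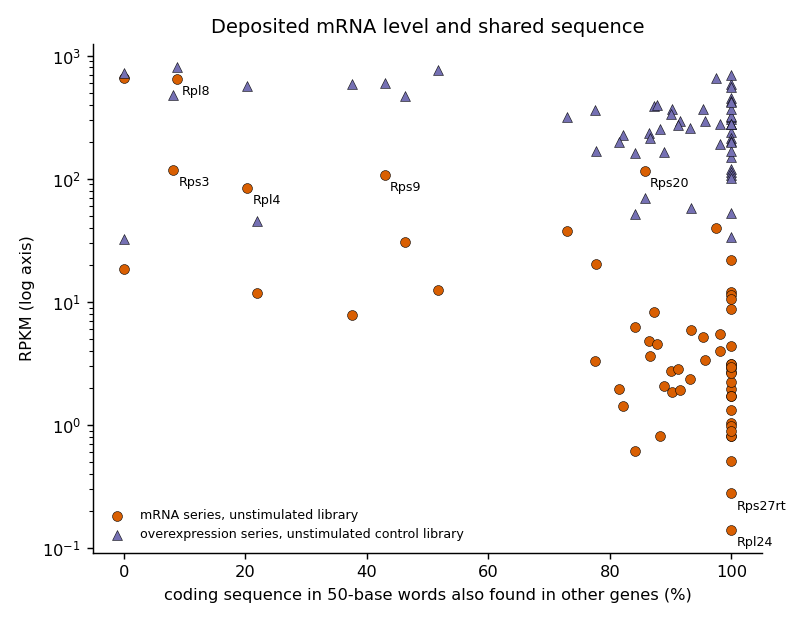
RPKM (log axis) in the unstimulated mRNA library (circles) and the unstimulated control library of the overexpression series (triangles) of 60 ribosomal protein genes, against the share of 50-base words of their coding sequence that also occur in other genes (%). Circles lie at 647 RPKM for Rpl8 and at 0.141 for Rpl24, and the triangles of the same genes at 806 and 216. The 60 genes are those with at least 10 RPKM in the control library.

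In the mRNA series the members were mostly lower after 6 h of lipid A. Of 62 members 3, 2, 7 and 3 were at least 1.5-fold higher and 9, 7, 6 and 20 lower at 0.5, 1, 2 and 6 h, where 3.92%, 5.90%, 8.42% and 11.3% of 9325 genes were higher and 4.92%, 11.3%, 17.3% and 34.3% lower. The member medians were -0.10, -0.27, -0.08 and -0.49, and those of all genes 0.00, -0.04, 0.00 and -0.05. The share of members lower at 6 h is near that of all genes, while the median is further from 0. The larger differences at 6 h were in low genes, among them Rpl39 (3.66 to 0.580 RPKM), Rps12 (3.15 to 0.882) and Rpl5 (2.90 to 0.962). Among members with high values and little shared sequence, Rpl8 went from 647 to 442 RPKM, Rps3 from 118 to 78.7 and Rpl4, with 20.3% of its words shared, from 84.8 to 52.0. Rps9 was at 108 RPKM before and 103 at 6 h, and Rpl24 at 0.141 and 1.18. The past-threshold members that were higher at 6 h, Rps27rt, Rpl24 and Rpl18, all had under 4 RPKM.

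With TNFa in the mRNA series 8, 5, 6 and 3 members were higher and 4, 2, 2 and 6 lower (3.85%, 4.40%, 5.05% and 8.92% of genes higher and 3.65%, 5.37%, 6.01% and 21.2% lower), with medians of 0.08, 0.04, 0.10 and -0.10. The lipid A and TNFa courses share the unstimulated library. At 6 h Rpl39 was at 1.26 RPKM, Rpl7a at 3.20 against 5.89 and Rpl3 at 1.77 against 3.39.

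In the overexpression series, where the ribosomal protein genes are read at high levels, 2 h of lipid A in control cells gave 0 of 63 members higher and 5 lower (11.7% and 38.8% of 6510 genes), with a median of -0.34 against -0.43. Among these were Rps19bp1 (32.2 to 15.9 RPKM), Rpl13 (279 to 176), Rps2 (163 to 103) and Rpl36 (189.6 to 125.6). TNFa gave 0 and 0 (7.34% and 8.54% of genes). IkBz overexpression against control gave 0, 0 and 1 members higher and 1, 2 and 1 lower in unstimulated, TNFa and lipid A libraries (6.14%, 6.08% and 6.31% of genes higher, 6.50%, 5.91% and 6.84% lower). Rpl39l was the member lower in all 3 (1.88 and 0.582 RPKM unstimulated, 1.84 and 0.896 with TNFa, 2.14 and 0.965 with lipid A), and Rps2 was higher with lipid A (103 and 164). The control and overexpressing libraries of each treatment are 1 library each.

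In J2 cells limma called 0 of 63 members in each of 7 comparisons, which set 2 h of lipid A against 0 h in 3 genotypes and the Nfkb1-/- and Nfkb1-/- Nfkb2-/- cells against wild type at both times. Of 6620 genes 0.106% were called higher in the lipid A comparison of the Nfkb1-/- Nfkb2-/- cells and 0.00% in every other comparison and direction. The unadjusted p was under 0.05 for 1 member in all, higher in Nfkb1-/- against wild type at 2 h. The member medians lay between -0.10 and 0.14. The fit assumes for the lone libraries of the other genotypes the spread seen between the replicates of Nfkb1-/- Nfkb2-/-.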

How the data were processed

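Values are RPKM as deposited by the authors in 1 table of 15196 genes and 136 libraries; per the submitters' processing notes reads were aligned with HISAT2 and handled with SAMtools on mm9. Chromatin values are over the whole gene span. How reads in several places, or strand, were counted is not given in the sources used here. Depth was read from the value of 1 read. Genes with at least 1 RPKM were tested with limma 3.58.1 (R 4.3.3) on log2(RPKM + 0.5), with a mean-variance trend and Benjamini-Hochberg adjustment per comparison over all genes tested (adjusted p under 0.05). The wild-type fit had the series as a term, and each knockout was fitted within its series. Single libraries were compared by log2 ratio past 1.5-fold, with no test. Scripts were tested on simulated data. Shared words were counted in GENCODE M21 transcripts of GRCm38.

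The members and gene lists were chosen with earlier results of these data known. Named genes were, by rule, up to 10 called members per direction and time (5 past the fold in single libraries), the 5 highest and lowest at 0 h, and a list of members with known other roles and paralogs; a few that the rule takes are not reported here by name. Same-numbered libraries of wild type and knockout deviated together (correlation of residuals 0.61 to 0.92 in the Nfkb1 series, 0.45 to 0.73 in Nfkbiz, 0.27 to 0.76 in Bcl3 and 0.68 to 0.93 in Nfkbid). The numbers were therefore taken to pair the libraries in the fits with a replicate block. The main knockout fits did not use this pairing. Alternatives were other pseudocounts (0.1 and 1), a filter of 3 RPKM or none, median centring, the block, a fold of 2, leaving out replicates and, added after seeing the data, the block with centring and removal of snoRNA signal.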

Additional observations from a re-analysis of the deposited data

How the results depend on the processing

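At 6 h of lipid A in wild type the fall of the members kept its direction in every setting run, and the number called depended on filter and scaling. With a filter of 3 RPKM, which tests fewer genes, 6, 2, 4 and 19 of 25 members were lower at 0.5, 1, 2 and 6 h. Of 1581 genes tested 656, 560, 647 and 562 were lower at these times. Centred on the median, 27, 36 and 21 were higher and 4, 1 and 2 lower at 0.5, 1 and 2 h, and 30 were lower at 6 h, where 32.1% to 36.8% of all genes were higher and 32.5% to 35% lower. The member median at 0.5 h moved from -0.14 to 0.35 with centring, so a smaller fall can change sign with the scaling. Rps29 and Rpl18 at 2 h, for example, changed sign, to 0.00203 and 0.0463, with and without the replicate block, and the cause was not tested. They are not a full list of such members. At 2-fold or more the counts were 0 higher and 1 lower at 0.5 h, 0 and 1 at 1 h, 1 and 1 at 2 h, and 0 and 3 at 6 h. The share of all genes at 2-fold or more was not counted, so these counts cannot be set against it. With replicate 1 of the Nfkbid series 57 members were tested. Of these 3 were higher and 9 lower at 0.5 h, and 2 and 3 at 1 h. At 2 h there were 2 higher and 5 lower, and at 6 h 0 and 44. Of 4260 genes 469, 559, 738 and 689 were higher and 2060, 1813, 1884 and 1698 lower at these times. Within the Nfkb1 series there were 0 higher and 5 lower at 0.5 h, 0 and 0 at 1 h, 3 and 0 at 2 h, and 0 and 15 at 6 h, where 30.9%, 29.6%, 27.9% and 26.2% of all genes were lower. Within the Nfkbiz series 0 were lower at 1 h (41.9% of all genes) and 1 higher at 6 h (16%). Within the Bcl3 series 9 were lower at 0.5 h, 1 higher and 8 lower at 1 h, and 13 lower at 6 h, where 56.9%, 52.0% and 38.3% of all genes were lower. Within the Nfkbid series 0 were called at 0.5, 1 and 2 h, and 0 higher and 2 lower at 6 h, where 23.0%, 21.1%, 24.1% and 15.4% of all genes were lower. Without single replicates the counts ranged from 4 to 4 higher and 12 to 18 lower at 0.5 h, 2 to 5 and 4 to 7 at 1 h (2 higher without either wild-type replicate of the Nfkbiz series), 6 to 6 and 7 to 13 at 2 h, and 1 to 2 and 46 to 51 at 6 h.

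Pairing by a replicate block gave 7 higher and 22 lower at 0.5 h, 9 and 10 at 1 h and 22 lower at 2 h in wild type, 1 member higher for Nfkb1-/- and 30 lower at 1 or more times for Nfkbiz-/-. A replicate block at each time gave 1 higher and 1 lower for Nfkb1-/- and 35 lower for Nfkbiz-/-. In the latter fit 35 of 58 members were lower at 6 h, where 1686 of 4885 genes were lower and 508 higher. The replicate block with centring gave 38 and 6, 48 and 1, and 32 and 4 at 0.5, 1 and 2 h in wild type, and 1 member higher for each of Nfkb1-/- and Nfkbiz-/-. Each of these fits also called Rps9 lower in the 6 h against 0 h comparison of the Nfkbiz-/- effect, at -0.997 (adjusted p = 0.0431), -0.997 (0.0422) and -0.85 (0.0320).

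For Nfkbiz-/-, 19 members were lower at 1 or more times. A filter of 3 RPKM gave 11, no filter 7, centring 5 and at least 2-fold 4. All genes were not counted at 2-fold or more, so the last count has no share beside it. At 6 h the filter of 3 RPKM gave 11 of 26 members, where 312 of 2160 genes were lower. No filter gave 7 of 66 at 6 h, where 712 of 15196 genes were lower. Centring gave 4 of 58 at 6 h, where 249 of 4885 genes were lower. A pseudocount of 0.1 gave 27 of 58 at 6 h and of 1 gave 11, where 920 and 649 of 4885 genes were lower. For Bcl3-/- leaving out single replicates gave 0 to 1 higher and 0 to 6 lower, the larger counts without Bcl3-/- replicate 2, and for Nfkb1-/- and Nfkbid-/- 0 to 0. J2 replicates could not be left out in turn, because no residual degrees of freedom remain.

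For the single libraries, shares of all genes were not counted under the settings below. The member counts therefore show only how they move with the setting, and not whether members differ from other genes. In the single libraries, counted at 1 or more times, a pseudocount of 0.1 gave 5 higher and 20 lower with the ERK inhibitor. A pseudocount of 1 gave 5 lower with the inhibitor, 7 higher for TNFa in mRNA and 6 higher for TNFa in chromatin. A filter of 3 RPKM gave 6 lower with the inhibitor, 6 higher for TNFa in mRNA and 1 lower with IkBz overexpression. Centring gave 4 higher with the inhibitor, 5 lower for TNFa in mRNA, 21 higher and 11 lower for lipid A in mRNA and 1 lower with IkBz overexpression. Past 2-fold there were 4 higher and 8 lower for lipid A in mRNA, 2 and 1 for TNFa in mRNA, 1 higher for TNFa in chromatin, 0 and 0 with the inhibitor, and 0 and 1 with IkBz overexpression.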
